A study of Mus musculus with 24 samples.

Results

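Platelet-activating factor (PAF) acetylhydrolases remove the acetyl group from PAF, an ether phospholipid that signals between inflammatory, vascular and neural cells through a G protein-coupled receptor. The secreted enzyme, made from *Pla2g7*, travels on plasma lipoproteins and also cleaves oxidized phospholipids, and in mouse brain its transcript is known mainly from astrocytes. Inside cells the same reaction is carried out by a complex of the catalytic subunits *Pafah1b2* and *Pafah1b3* with *Pafah1b1* (LIS1), a dynein regulator needed for neuronal migration, and by a separate monomeric enzyme, *Pafah2*.

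*Pla2g7* was chosen by its measured difference between the genotypes in the mice described here, and *Pafah1b1*, *Pafah1b2*, *Pafah1b3* and *Pafah2* were joined to it by enzyme family. All 5 were among the 13998 genes of the deposited table. The mice were 24 adult male F_2_ animals from an intercross between C57BL/6J and the B6.CAST-17.1 subcongenic strain, which carries CAST/EiJ DNA on proximal Chr 17. Of these, 12 were *cast/cast* and 12 were *b6/b6* over the whole segment, and both genotypes were *b6/b6* elsewhere. The *cast/cast* mice had been picked for the highest and the *b6/b6* mice for the lowest intake of a carbohydrate/protein (C/P) diet offered beside a fat/protein diet for 10 d, so that genotype and selected intake cannot be told apart between the groups. After a return to chow, both diets were offered again before a short fast and collection of the hypothalamus, which was dissected by visual landmarks. SAGE-Seq counts transcripts by 1 tag of 27 bases read near the 3′ end, and each mouse gave 1 library. Tag hits on genes totalled 7754202 to 13082873 per mouse, the median being 10032338 among *b6/b6* mice and 10383038 among *cast/cast* mice, and the values below are tag hits divided by the size factor of the library (normalized counts). Since a transcript gives 1 tag whatever its length, levels of different genes were compared without a correction for length.

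The tissue carried its defining markers. All 12 hypothalamus markers examined were measured and none was at 0 in any mouse, with *Pmch*, the melanin-concentrating hormone precursor, the most abundant at 8479 ± 5265 normalized counts (SD, n = 12) in *b6/b6* mice against 7780 ± 3780 (n = 12) in *cast/cast* mice. Their sum was 16037.5 ± 4702 in *b6/b6* mice, the lowest at 11479, against 16855 ± 7264 in *cast/cast* mice, the highest at 32981. The sums of *cast/cast* mice 4, 5 and 6, at 7969, 9177 and 6354, lay below those of every *b6/b6* mouse. Whether the dissection differed was not tested. In 3 libraries the median correlation with the other libraries was below 0.85, at 0.841 in *b6/b6* mouse 6, 0.803 in *b6/b6* mouse 12 and 0.827 in *cast/cast* mouse 6. These libraries were kept, and values that moved most without them are also given without them. For *Pmch* these were 6980 ± 3228 (n = 10) against 8270 ± 3542 (n = 11), which turned the order of the means. The labels name no batch, but they number the mice in the study, and these numbers had a median of 269.5 in *b6/b6* mice (27 to 364) and 120.5 in *cast/cast* mice (15 to 270).

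The level of *Pla2g7* in *b6/b6* mice ran from 252.3 to 1225 normalized counts, with a median of 866.7, and in *cast/cast* mice from 0.953 to 10.4, with a median of 6.37. Every *cast/cast* mouse lay below every *b6/b6* mouse, and the highest *cast/cast* value rested on 11 tag hits where the lowest *b6/b6* value rested on 223. Means were 773.3 ± 344 (SD, n = 12) in *b6/b6* mice against 6.18 ± 2.97 (n = 12) in *cast/cast* mice, which made the ratio of the means 125.2, with a difference of -6.73 on the log2(normalized count + 1) scale. Since this difference chose the gene, it is a description and was not tested. In all, 76 tag hits were assigned to *Pla2g7* in the 12 *cast/cast* libraries together and 9587 in the *b6/b6* libraries, and no *cast/cast* library was at 0. From the level of a single gene in whole tissue, fewer cells of a type and less RNA per cell cannot be told apart, and the markers of astrocytes and other cell types are therefore given as well.

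**Figure D1:**
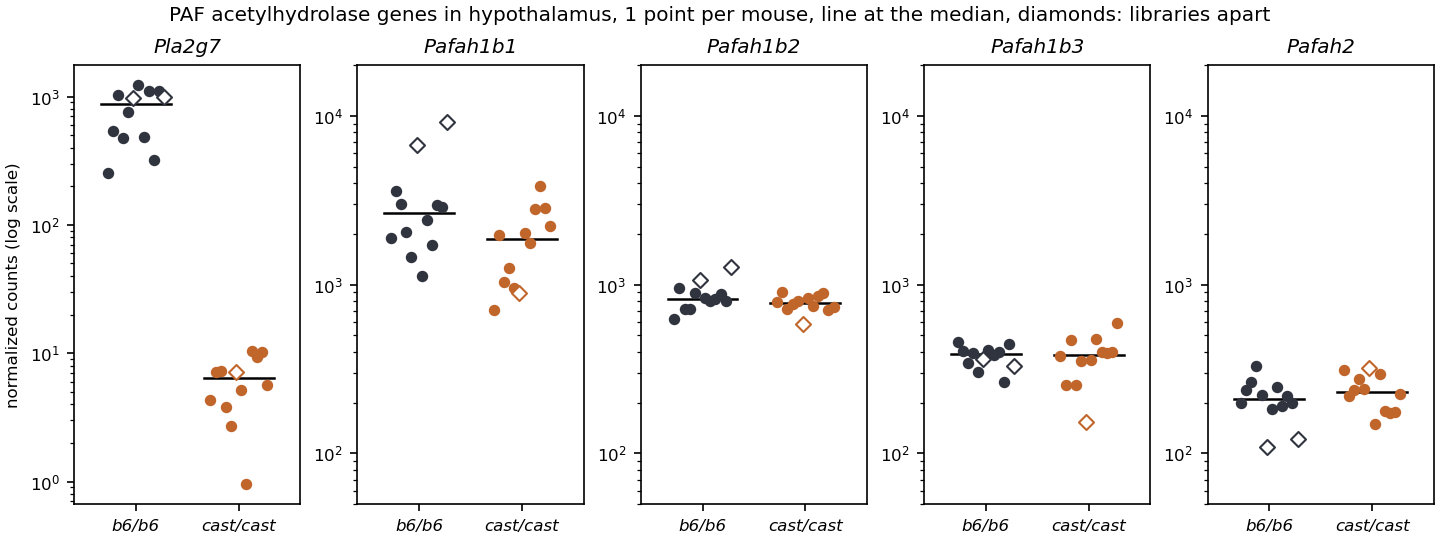
Normalized counts (log scale) of the 5 PAF acetylhydrolase genes in each of 12 *b6/b6* and 12 *cast/cast* mice, with lines at the medians and open diamonds for the 3 libraries that stood apart; the axis of *Pla2g7* differs from the others. *Pla2g7* separates the genotypes, at 252.3 to 1225 against 0.953 to 10.4, and the other 4 genes overlap.

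The levels of the family in *b6/b6* hypothalamus are given in the order of their means. *Pafah1b1* came first at 3260 ± 2381 normalized counts (SD, n = 12), above 96.2% of all genes, followed by *Pafah1b2* at 866.5 ± 175, *Pla2g7* at 773.3 ± 344, *Pafah1b3* at 374.9 ± 56.9 and *Pafah2* at 210.6 ± 59.8, the last above 56.5% of all genes. Without *b6/b6* mice 6 and 12 *Pafah1b1* was at 2314 ± 798 (n = 10) and still first. *Pafah1b1* exceeded *Pafah1b2* in 12 of 12 *b6/b6* mice, and *Pafah1b3* exceeded *Pafah2* in 12 of 12. *Pafah1b2* and *Pla2g7* did not differ beyond their spread, with *Pafah1b2* higher in 8 of 12 mice and the median of *Pla2g7*, at 866.7, above that of *Pafah1b2*, at 828.1. Without *b6/b6* mice 6 and 12 the order of these medians turned, to 643.8 for *Pla2g7* and 812.5 for *Pafah1b2* (n = 10). *Pafah1b2* was the higher in 2 of the 6 *b6/b6* mice with lower and 6 of the 6 with higher study numbers. In *cast/cast* mice *Pla2g7* was last in 12 of 12, and the means of the other 4 genes kept their order, although *Pafah1b1* exceeded *Pafah1b2* in 11 of 12 and *Pafah1b3* exceeded *Pafah2* in 10 of 12. *Pla2g7* made up 6.83% to 32.4% of the summed normalized counts of the family in *b6/b6* mice (median 11.6%) and 0.029% to 0.363% in *cast/cast* mice.

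*Pla2g7* had a coefficient of variation of 44.5% among *b6/b6* mice, above the median of 32.7% over all genes with a mean of at least 50. After the data were seen, the *b6/b6* mice were split at the median study number. The 6 mice numbered 27 to 251 had 981.2 to 1225 normalized counts (median 1073), and the 6 numbered 288 to 364 had 252.3 to 752.3 (median 479.9). These ranges did not overlap, and the ratio of the means was 2.29. Of all 13998 genes, 813 (5.81%) were lower without overlap in the same 6 mice, so that *Pla2g7* was 1 of many. The libraries themselves divided in the same way, with scores on the first principal component of genes placed off Chr 17 (39.2% of the variance) of -57.5 to -20.1 in the lower-numbered and 10.6 to 49.6 in the higher-numbered mice. The *cast/cast* mice did not divide in this way when split at their own median number, with *Pla2g7* at 3.81 to 10.4 in the 6 numbered 15 to 120 and at 0.953 to 10.3 in the 6 numbered 121 to 270. Their component scores overlapped too, at -25.8 to 79.3 and -29.5 to 51.2. The *cast/cast* mice numbered 15, 72 and 258, at 62.8, 79.3 and 51.2, scored above every *b6/b6* mouse. These were *cast/cast* mice 4, 6 and 5, whose summed hypothalamus markers lay below those of every *b6/b6* mouse. No *cast/cast* mouse was numbered above 270. What the study number orders is not given in the sources used here. The study's methods describe several experimental cohorts and a dietary fat source that varied with availability, and tie neither to these numbers.

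**Figure D2:**
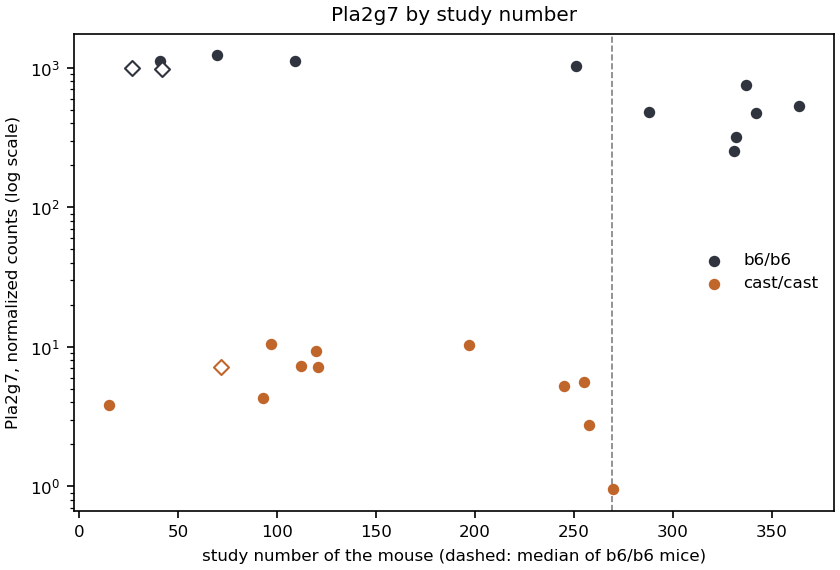
*Pla2g7* in normalized counts (log scale) against the study number of each mouse, *b6/b6* in dark and *cast/cast* in orange, with diamonds for the 3 libraries that stood apart and a dashed line at the *b6/b6* median of 269.5. The *b6/b6* mice left of the line have 981.2 to 1225 and those right of it 252.3 to 752.3.

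Summed levels of cell type markers also differed in their medians along this split of the *b6/b6* mice, some lower and some higher at higher study numbers. The summed level of the 7 oligodendrocyte markers, led by *Mbp*, was 20955 to 44551 normalized counts in the 6 lower-numbered mice (median 26710) and 12694 to 22700 in the 6 higher-numbered mice (median 18929). The 9 astrocyte markers, led by the glutamate transporter *Slc1a2*, summed to 27353 to 33268 (median 31954) and to 26870 to 32201 (median 27894). The 5 endothelial markers, led by *Slco1c1*, had medians of 629.6 and 493.6. In the other direction, the 3 measured blood markers had 121.4 to 4999 (median 195.7) at lower and 470.2 to 1044 (median 615.1) at higher numbers, and the 3 measured ependymal and tanycyte markers medians of 4625 and 5213. The ependymal and tanycyte sum mostly followed a single gene, *Nnat*, whose mean over the *b6/b6* mice was 4311 against 4963 for the sum. All listed oligodendrocyte, astrocyte and endothelial markers were measured, and no measured marker of these 5 types was at 0 in a mouse. Each sum overlapped between the sets of mice, the endothelial one at 524.8 to 1359 against 363.4 to 528.3. Without *b6/b6* mice 6 and 12, both lower-numbered, the endothelial sum was 524.8 to 643.6 in the 4 mice left (median 604.0), and the blood sum was 121.4 to 209.7 (median 179.6), which no longer overlapped that of the higher-numbered mice. Summed neuron (medians 46670 and 42786), hypothalamus (15951.5 and 13458.5) and choroid plexus markers (204.0 and 175.4) were also lower at higher numbers. Without mice 6 and 12 the choroid plexus median at lower numbers was 155.8. Pituitary markers had medians of 50.7 and 51.3. The part of these cell types in the level of *Pla2g7* was not tested.

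Between the genotypes the summed astrocyte markers overlapped. Summed astrocyte markers were 29774 ± 2549 normalized counts (SD, n = 12) in *b6/b6* mice against 31950 ± 3134 (n = 12) in *cast/cast* mice. Genes were tested between genotypes with limma over the whole table and called at an unadjusted *P* of at most 0.01 with a ratio of means of at least 1.5. By this rule 208 of 13998 genes (1.49%) were called, 142 (1.01%) lower and 66 (0.471%) higher in *cast/cast* mice, and the median log2 difference (*cast/cast* minus *b6/b6*) of all genes was -0.02. By limma, edgeR and DESeq2 no astrocyte marker and no microglia marker was called, with 0 and 2 genes at an unadjusted limma *P* under 0.05, against 8.13% of all genes. The median log2 difference by limma was 0.052 for astrocyte and -0.073 for microglia markers, and neither kept its direction. That of astrocyte markers turned to -0.071 without the 3 libraries that stood apart, and that of microglia markers to 0.019 without them, 0.061 by edgeR and 0.064 by DESeq2. The lowest median of any marker list was that of blood, at -0.92 by limma and -1.52 by edgeR. The part of any cell type in the difference of *Pla2g7* between the genotypes was not tested.

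SAGE reads a single site of each transcript, so the tag on which each value most likely rests is shown. It starts at the CATG site nearest the 3′ end and runs for 27 bases, and the table does not state which tags were counted. The tags were read from GENCODE transcripts of GRCm38 that end where the table ends the gene, the *Pafah1b2* transcript being shortened to that end. The site is in capitals.
Pla2g7: CATGagagagagagagagagagagcgc
Pafah1b1: CATGttttctgcatattaaaaatctta
Pafah1b2: CATGgccagttctttaaagaattataa
Pafah1b3: CATGtatgattacctacacctgagccg
Pafah2: CATGattgttggcccactcactgtatg

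The *Pla2g7* tag lies in the 3′ UTR at chr17:43612023-43612049 on the plus strand, 152 bases before the transcript end, and the transcript has 7 CATG sites in all. After the site it consists almost wholly of 10 AG dinucleotides in a row, a run held by 4 of the 92390 distinct tags of the annotation (0.00433%). No other gene had the same tag, and 1 gene, *Csnk1e*, had a tag within 2 mismatches. The tags of *Pafah1b1* (chr11:74673988-74674014, minus strand), *Pafah1b2* (chr9:45965677-45965703, minus strand) and *Pafah2* (chr4:134427360-134427386, plus strand) also lie in 3′ UTRs, and that of *Pafah1b3* (chr7:25295192-25295218, minus strand) in coding sequence. None of these had another gene within 2 mismatches. The CAST/EiJ sequence at the *Pla2g7* tag was not analysed here, and its part in the low *cast/cast* values was not tested.

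*Pla2g7* spans 43568451 to 43612201 on the plus strand of Chr 17 (GRCm38), within the CAST/EiJ donor segment as the study mapped it. On Chr 17 as a whole 102 of 633 genes (16.1%) were called, against 87 of 12647 genes (0.688%) placed elsewhere. Of the 11 other measured genes that start within 1 Mb of *Pla2g7*, 3 were lower and 1 was higher in *cast/cast* mice. The nearest measured gene on the proximal side, the adhesion receptor *Gpr116*, was not called, at 340.7 ± 46.8 normalized counts in *b6/b6* mice against 306.2 ± 48.8 in *cast/cast* mice (log2 difference -0.16, 95% CI -0.39 to 0.07, *P* = 0.174). On the distal side the mitochondrial carrier *Slc25a27* was lower in *cast/cast* mice, at 58.0 ± 42.8 and 26.3 ± 12.5 (log2 difference -1.01, SE 0.29, *P* = 0.00164, adjusted *P* = 0.201). Beyond it the oxysterol hydroxylase *Cyp39a1* was also lower, at 23.01 ± 11.9 and 10.2 ± 5.52 (-1.12, SE 0.28, *P* = 0.000397, adjusted *P* = 0.0670). The largest difference among these neighbours was that of *E130008D07Rik*, at 34.4 ± 13.1 and 2.59 ± 2.40 (-3.47, SE 0.32), with every *cast/cast* mouse below every *b6/b6* mouse. Its *cast/cast* values rested on 0 to 7 tag hits per mouse, so the size of this difference carries counting error. The ectonucleotide pyrophosphatase family gene *Enpp4* was higher, at 323.1 ± 53.3 and 534.0 ± 215 (0.65, SE 0.17, *P* = 0.00052, adjusted *P* = 0.0837), with 10 of 12 *cast/cast* mice above all *b6/b6* mice. Called and uncalled genes thus lay on either side of *Pla2g7*, and the called ones did not all go the same way. Without the 2 *b6/b6* libraries that stood apart the difference of *Slc25a27* was -0.69 (*P* = 0.00591), and with 2 principal components as covariates -0.60 (*P* = 0.00767), and it was called in both. Among the mice with study numbers up to 270 (12 *cast/cast* and 6 *b6/b6*), where the rule took 848 of 13994 genes (6.06%), *Cyp39a1* was no longer called (-0.89, *P* = 0.0143) and *Runx2* was called higher (0.88, *P* = 0.00815), which left the count at 4. Of these 6 *b6/b6* mice, 2 were mice 6 and 12, whose libraries stood apart. *Enpp5*, which starts beside *Enpp4*, was at 994.2 ± 234 and 694.6 ± 113 (-0.50, SE 0.13, *P* = 0.000598, adjusted *P* = 0.0941), and its ratio of 1.43 kept it from being called. With equal library totals or no minimum ratio it was called too, making 5. *Runx2* and *Enpp5* were named after their values were seen.

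**Figure D3:**
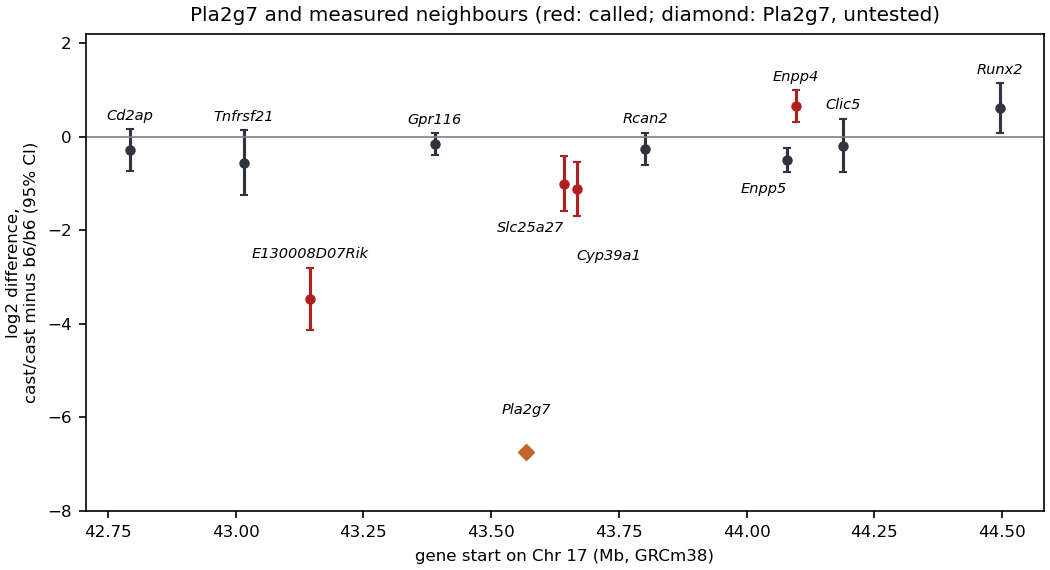
Log2 difference, *cast/cast* minus *b6/b6*, with 95% confidence interval for the 11 measured neighbours of *Pla2g7* by gene start on Chr 17 (Mb, GRCm38), called genes in red, and *Pla2g7* as an orange diamond without interval. *Pla2g7* at -6.73 and *E130008D07Rik* at -3.47 lie below the other genes.

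None of the 4 relatives was called by limma, edgeR or DESeq2. *Pafah1b1* (LIS1), the regulatory subunit, ran from 1125 to 9208 normalized counts in *b6/b6* mice (median 2655) and from 707.2 to 3853 in *cast/cast* mice (median 1861). The ranges overlapped, with 4 of 12 *cast/cast* mice below all *b6/b6* mice. The log2 difference was -0.72 (SE 0.31, 95% CI -1.36 to -0.08, *P* = 0.0282, adjusted *P* = 0.586), and a permutation test of the difference, two-sided, gave *P* = 0.0417. The highest values, 9208 and 6771, belonged to *b6/b6* mice 12 and 6, which stood apart. Without these mice the log2 difference was -0.41 (*P* = 0.137), and without all 3 libraries that stood apart -0.33 (*P* = 0.221). Those 2 mice also had summed blood markers of 1704 and 4999 normalized counts against 121.4 to 1044 in the other *b6/b6* mice, and summed endothelial markers of 1197 and 1359. The part of these markers in the level of *Pafah1b1* was not tested.

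LIS1 acts with dynein, its cofactor dynactin and the NUDE proteins, and all 26 genes of this list were measured. By limma 0 of 26 were called, with edgeR and DESeq2 on recovered tag hits also 0, the rule taking 2.79% and 2.82% of all genes with those tools. The median log2 difference was -0.075, and it turned to 0.0077 with 2 principal components as covariates. Unadjusted *P* was under 0.05 for 4 genes, named after their values were seen, of which *Dynll1*, *Nudc* and *Dctn2* were higher and *Dynll2* lower in the means of *cast/cast* mice. Without the 3 libraries that stood apart 2 genes had such a *P*, and *b6/b6* mice 6 and 12 had the lowest summed levels of this list of all 24 mice, at 40920 and 39598 normalized counts. Among mice with study numbers up to 270, 3 of 26 were called, *Nudc* and *Dctn2* higher and *Dctn5* lower, against 6.06% of all genes. The lowest *P* was that of the dynein light chain *Dynll1*, at 4511 ± 776 normalized counts in *b6/b6* mice against 5770 ± 596 in *cast/cast* mice (log2 difference 0.37, SE 0.11, *P* = 0.00199, adjusted *P* = 0.224), whose ratio was below 1.5. For *Dynll1* edgeR gave *P* = 0.00387 (adjusted *P* = 0.234) and DESeq2 *P* = 0.000259 (adjusted *P* = 0.0332), and it was the 1 gene of the list with an adjusted *P* under 0.05 by DESeq2. The most abundant gene was *Ywhae*, a 14-3-3 protein that binds the NUDE proteins, at 11634 ± 3244 and 12110 ± 2854, or 12870 ± 1618 and 12468 ± 2697 without the 3 libraries that stood apart. Of the reelin pathway, which shares with LIS1 a role in cortical layering, 4 of 4 genes were measured and 0 were called by limma, edgeR or DESeq2, with 0 at an unadjusted *P* under 0.05 by each tool and a median of -0.10, which turned to 0.0072 with 2 principal components as covariates. *Vldlr* was the most abundant at 590.5 ± 159 and 568.3 ± 186, and *Reln* had the lowest *P* (log2 difference -0.37, *P* = 0.263), a difference that turned to 0.082 without the 3 libraries that stood apart and was -0.96 (*P* = 0.0135) among mice with study numbers up to 270.

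The catalytic subunits *Pafah1b2* and *Pafah1b3* overlapped between the genotypes. *Pafah1b2* ran from 623.3 to 1278 normalized counts in *b6/b6* mice (median 828.1) and from 587.5 to 906.4 in *cast/cast* mice (median 778.1), with 1 *cast/cast* mouse, mouse 6, below all *b6/b6* mice. Its log2 difference was -0.14 (SE 0.11, 95% CI -0.37 to 0.09, *P* = 0.233, adjusted *P* = 0.720). As for *Pafah1b1*, the 2 highest values, 1278 and 1072, were those of *b6/b6* mice 12 and 6. Without the 3 libraries that stood apart the means were 804.8 ± 97.6 (n = 10) in *b6/b6* mice against 796.7 ± 68.0 (n = 11) in *cast/cast* mice. *Pafah1b3* ran from 265.2 to 455.9 in *b6/b6* mice (median 387.5) and from 154.3 to 592.1 in *cast/cast* mice (median 385.2), so that the *cast/cast* values lay on both sides of the others, 3 mice below and 3 above all *b6/b6* mice. Its log2 difference of -0.06 (SE 0.16, 95% CI -0.40 to 0.27, *P* = 0.698, adjusted *P* = 0.922) was within the spread between mice and turned to 0.025 without the 3 libraries that stood apart. *Pafah1b2* was above *Pafah1b3* in every mouse, with a mean ratio of 2.39 ± 0.724 in *b6/b6* mice against 2.30 ± 0.794 in *cast/cast* mice.

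*Pafah2*, the intracellular relative closest to the secreted enzyme in sequence and in its use of oxidized phospholipids, ran from 108.4 to 329.7 normalized counts in *b6/b6* mice (median 209.7) and from 148.4 to 321.7 in *cast/cast* mice (median 230.8). The ranges overlapped almost fully. Its log2 difference was 0.17 (SE 0.17, 95% CI -0.18 to 0.52, *P* = 0.337, adjusted *P* = 0.775). Here *b6/b6* mice 6 and 12 were the lowest of all 24, at 108.4 and 121.8, the reverse of their place for *Pafah1b1* and *Pafah1b2*. The difference turned to -0.041 without the 3 libraries that stood apart and to -0.036 with 2 principal components as covariates. It was larger, at 0.41 (*P* = 0.0614), among the mice with study numbers up to 270, and 0.25 (*P* = 0.150) with study number as a covariate.

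Genes of the synthesis and turnover of PAF and other ether lipids were looked at next, since these lipids include the substrate of the family. Of 16 listed genes 15 were measured, and the PAF receptor gene *Ptafr* was not analysed here. By limma 0 of 15 were called, 2 had an unadjusted *P* under 0.05 and the median log2 difference was -0.11. Among mice with study numbers up to 270 the median was -0.38 and 2 genes were called lower, *Gnpat* and *Far1*. At that setting the rule took 6.06% of all genes, and over all mice it took 2.79% with edgeR and 2.82% with DESeq2. *Gnpat*, which starts ether lipid synthesis in peroxisomes, had the lowest *P*, at 111.7 ± 81.8 normalized counts in *b6/b6* mice against 64.4 ± 21.05 in *cast/cast* mice (log2 difference -0.63, SE 0.26, *P* = 0.0229, adjusted *P* = 0.572), and was called lower by edgeR (*P* = 0.00842) and DESeq2 (*P* = 0.00486). Without the 3 libraries that stood apart its levels were 79.0 ± 17.6 and 67.0 ± 20.1 and its log2 difference was -0.27 (*P* = 0.178). Among mice with study numbers up to 270 it was called at -1.09 (*P* = 0.00193), where 2 of the 6 *b6/b6* libraries were among those that stood apart. The other gene, named after its values were seen, was the lysoplasmalogenase *Tmem86b*, at 49.1 ± 27.5 and 73.7 ± 28.2 (0.76, SE 0.32, *P* = 0.0266, adjusted *P* = 0.586). The acetyltransferases that make PAF from its lyso form, named for that role, had log2 differences of -0.07 for *Lpcat1* (*P* = 0.882) and 0.02 for *Lpcat2* (*P* = 0.934). The most abundant gene was *Cept1*, a phosphotransferase of the last step of choline phospholipid synthesis, at 1199 ± 320 and 1338 ± 289.

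**Figure D4:**
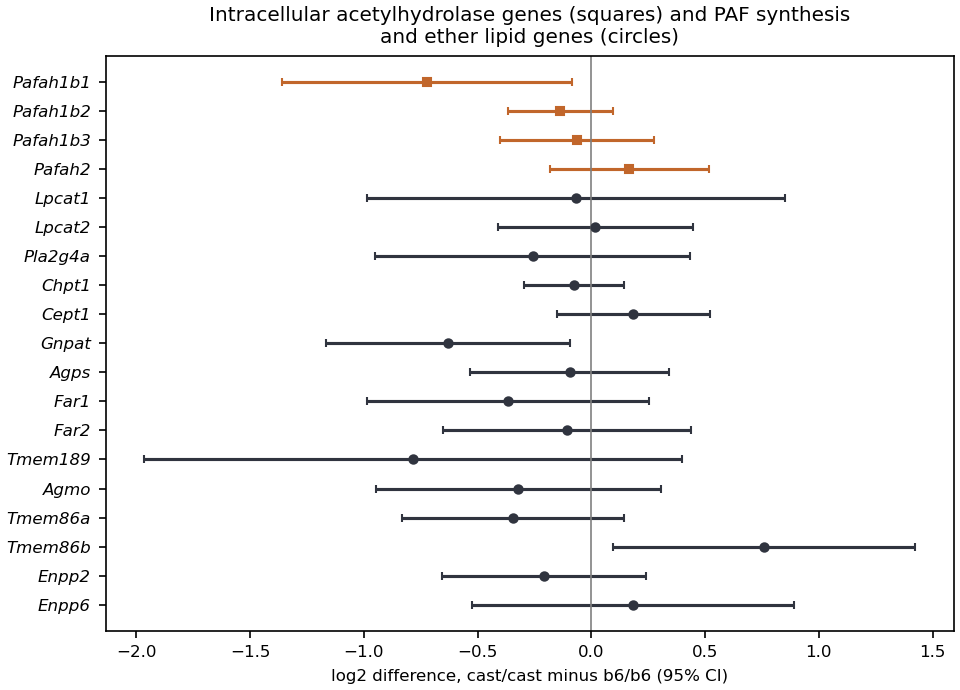
Log2 difference, *cast/cast* minus *b6/b6*, with 95% confidence interval for the 4 intracellular PAF acetylhydrolase genes (squares) and the 15 measured genes of PAF and ether lipid synthesis and turnover (circles). The values lie from -0.78 for *Tmem189* to 0.76 for *Tmem86b*. By limma no gene was called, while edgeR and DESeq2 each called *Gnpat* lower.

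Other phospholipases A2 release fatty acids from the same class of lipids, and 9 of the 22 listed were measured. By limma, edgeR and DESeq2 0 of 9 were called, with 0, 1 and 1 at an unadjusted *P* under 0.05, and the median log2 difference by limma was -0.011, turning to 0.0039 by edgeR, 0.0059 by DESeq2 and 0.019 with study number as a covariate, and most, to 0.13, among mice with study numbers up to 270, where 1 gene had an unadjusted *P* under 0.05. *Pnpla8* was the most abundant at 1253 ± 331 normalized counts in *b6/b6* mice against 1072 ± 203 in *cast/cast* mice, and *Pla2g4e* had the lowest *P*, at 147.8 ± 41.6 and 215.5 ± 126 (0.41, SE 0.23, *P* = 0.0833, adjusted *P* = 0.628; *P* = 0.0305 by edgeR and 0.0247 by DESeq2). Of the lipoprotein genes, whose particles carry the secreted enzyme, 9 of 10 were measured and *Apob* was not analysed here. By limma, edgeR and DESeq2 0 of 9 were called, 1 had an unadjusted *P* under 0.05 and the median by limma was 0.049. The median turned to -0.024 without the 3 libraries that stood apart and to -0.27 among mice with study numbers up to 270. At the latter setting *Apoa1* was called higher, and 6.06% of all genes were called in either direction. Over all mice the gene with an unadjusted *P* under 0.05 was the cholesterol exporter *Abca1*, at 106.7 ± 42.0 and 73.1 ± 15.2 (-0.49, SE 0.17, *P* = 0.00863, adjusted *P* = 0.472), whose ratio of means was below 1.5. It was called after rescaling to equal library totals and with no minimum ratio, and without the 3 libraries that stood apart its log2 difference was -0.28 (*P* = 0.0552). *Apoe*, the main brain apolipoprotein, was the most abundant at 18296 ± 6717 and 18881 ± 5329, or 19654 ± 6545 and 19200 ± 5467 without the 3 libraries.

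The remaining marker lists described the other cells that the dissected tissue can hold. Of neurons 6 of 6 markers were measured, led by *Snap25* at 17329 ± 2279 normalized counts in *b6/b6* mice against 16897 ± 1789 in *cast/cast* mice, or 17054 ± 2302 against 17158 ± 1619 without the 3 libraries that stood apart, and the lowest *P* was that of *Syt1* (0.284). The lowest *P* among astrocyte markers was that of *Gja1* (log2 difference -0.42, *P* = 0.206). It turned to 0.037 without the 3 libraries that stood apart, and was -1.04 (*P* = 0.0115) among mice with study numbers up to 270, -0.64 (*P* = 0.0384) with study number as a covariate and -0.87 (*P* = 0.0240) by edgeR. Among microglia markers the lowest *P* was that of *Tmem119* (-0.78, *P* = 0.0268, adjusted *P* = 0.586), at -0.58 (*P* = 0.0948) without the 2 *b6/b6* libraries that stood apart and -0.42 (*P* = 0.186) with 2 principal components. Of oligodendrocytes 7 of 7 were measured, *Mag* having the lowest *P* (-0.92, *P* = 0.0509), called lower by edgeR (*P* = 0.00385) and not by DESeq2, at -0.31 (*P* = 0.345) without the 3 libraries that stood apart and at -1.82 (*P* = 0.00193) among mice with study numbers up to 270. All 5 endothelial markers were measured, with *Flt1* lowest in *P* (-0.64, *P* = 0.0898), at -0.25 (*P* = 0.404) without the 2 *b6/b6* libraries that stood apart and -1.13 (*P* = 0.0207) among mice with study numbers up to 270. So were all 5 choroid plexus markers, led by *Kl* and with *Kcnj13* at 0 in 1 mouse, at a sum of 179.5 ± 41.4 and 207.2 ± 135. Of ependyma and tanycytes 3 of 5 were measured, led by *Nnat*, with *Rax* and *Tmem212* not analysed here, and *Ccdc153* was lowest in *P* (0.59, *P* = 0.0284, adjusted *P* = 0.586). Its difference was 0.43 (*P* = 0.0553) without the 3 libraries that stood apart, 0.35 (*P* = 0.120) without the 2 *b6/b6* libraries among them and 0.21 (*P* = 0.162) with 2 principal components. Of pituitary markers *Prl*, *Tshb* and *Pou1f1* were not analysed here, and *Gh* was at 0 in 11, *Fshb* in 8 and *Cga* in 5 of 24 mice, with sums of 0 to 470.9 in *b6/b6* mice against 0 to 283.1 in *cast/cast* mice. *Gh* was the most abundant of them over all 24 mice, at 65.1 ± 138 and 19.9 ± 39.9, although *Cga* was above it in *cast/cast* mice, at 24.6 ± 26.3 and 46.7 ± 85.2. The level of *Gh* was 21.6 ± 57.3 and 21.7 ± 41.4 without the 3 libraries that stood apart. The log2 difference of *Gh* was -0.72 (*P* = 0.527), turned to 0.46 without the 3 libraries that stood apart, and was -1.66 (*P* = 0.224) among mice with study numbers up to 270. Blood markers were led by *Hba-a1*, at 492.8 ± 702 and 172.7 ± 118, or 252.7 ± 171 and 146.4 ± 78.5 without the 3 libraries, with *Hbb-b1*, *Hbb-b2*, *Hbb-bs* and *Hbb-bt* not analysed here, and summed to 944.2 ± 1353 in *b6/b6* mice against 325.6 ± 202 in *cast/cast* mice, or to 462.7 ± 296 (n = 10) against 284.1 ± 149 (n = 11) without the 3 libraries that stood apart, *b6/b6* mouse 6 alone having 4999. *Alas2* had the lowest *P* of these (-0.92, *P* = 0.0456, adjusted *P* = 0.608), at -0.67 (*P* = 0.146) without the 2 *b6/b6* libraries and -0.56 (*P* = 0.138) with 2 principal components. Of the 3 blood markers edgeR and DESeq2 each called 2, *Hba-a1* and *Hba-a2*, lower in *cast/cast* mice, where these tools called 2.79% and 2.82% of all genes. Both are placed at almost the same span of Chr 11, 32283672 to 32297303 and 32283675 to 32297310. They may therefore not be 2 separate measurements. By limma *Hba-a1* and *Hba-a2* were at -0.91 (*P* = 0.0616) and -0.92 (*P* = 0.0602), and without the 3 libraries at -0.59 (*P* = 0.125) and -0.50 (*P* = 0.172), where edgeR and DESeq2 were not run. By limma 0 genes of any marker list were called, and edgeR and DESeq2 called none beyond those named. Among mice with study numbers up to 270, where limma called 6.06% of all genes, it called 3 genes of the marker lists, *Mag* and *Cnp* lower and *Aif1* higher. In that setting 2 of the 6 *b6/b6* libraries were among those that stood apart. *Aif1* lies on Chr 17 within the donor segment as the study mapped it, and over all mice 16.1% of the genes of that chromosome were called against 0.688% elsewhere. Over all mice, unadjusted *P* was under 0.05 for 2 microglia genes, *Tmem119* and *Aif1* (0.56, *P* = 0.0411), and for 1 gene each of the ependymal and blood lists. Among the hypothalamus markers the lowest *P* was that of *Ghrh* (0.32, *P* = 0.181), which was 0.57 (*P* = 0.0441) among mice with study numbers up to 270.

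The median log2 difference by limma was 0.091 for neuron, -0.26 for oligodendrocyte, -0.20 for endothelial, 0.59 for ependymal and tanycyte, -0.18 for choroid plexus, -0.30 for pituitary, -0.92 for blood and 0.029 for hypothalamus markers, against -0.018 for all genes. Without the 3 libraries that stood apart these medians were, in the same order, 0.11, -0.019, -0.033, 0.43, -0.074, 0.025, -0.59 and 0.22. Several turned with a setting. That of neuron markers was -0.014 among mice with study numbers up to 270, that of choroid plexus markers 0.12 by edgeR, that of pituitary markers 0.38 by edgeR and 0.46 by DESeq2, and that of hypothalamus markers -0.015 by edgeR, -0.011 by DESeq2 and -0.12 among mice with study numbers up to 270.

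Whether expression of the family followed food intake was asked within each genotype, as the groups had been selected for opposite intakes. Each of the 5 genes was related to the 10 d sums of C/P and total kcal, giving 20 relations over 12 mice each. None passed an adjusted *P* of 0.05, all 20 having an adjusted *P* of 0.916 for *r* and 0.942 to 0.973 for rho. The selection cut the range of C/P intake within each genotype, to 27.4 to 41 kcal in *b6/b6* and 77.8 to 106.6 kcal in *cast/cast* mice. With that range and 12 mice a relation could go undetected, so these values do not show that there is none. For *Pla2g7* against C/P kcal, *r* was 0.05 in *b6/b6* (permutation *P* = 0.880; rho = 0.15, *P* = 0.636) and 0.05 in *cast/cast* mice (*P* = 0.887; rho = 0.01, *P* = 0.969), and 0.31 and 0.26 without the 2 mice farthest from the median intake. Within the 6 *b6/b6* mice of lower and the 6 of higher study number, *r* was 0.25 (exact permutation *P* = 0.628) and 0.65 (exact permutation *P* = 0.178). Against total kcal, *r* was -0.27 in *b6/b6* (permutation *P* = 0.400; rho = -0.33, *P* = 0.30) and 0.28 in *cast/cast* mice (*P* = 0.382; rho = 0.31, *P* = 0.320), and -0.19 and -0.025 without the 2 farthest mice. Within the same 6 lower-numbered and 6 higher-numbered *b6/b6* mice it was -0.29 (exact permutation *P* = 0.564) and turned to 0.092 (exact permutation *P* = 0.879). The lowest *P* of the 20 was that of *Pafah2* against C/P kcal in *b6/b6* mice (*r* = 0.49, permutation *P* = 0.111; rho = 0.35, *P* = 0.263), where *r* was 0.19 without the 2 farthest mice. *Pafah1b1* against C/P kcal in *b6/b6* mice had *r* = -0.43 (permutation *P* = 0.167; rho = -0.06, *P* = 0.845), which turned to 0.25 without the 2 farthest mice.

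The genes whose levels were most like each member are given as a description, from 9995 other genes with a mean of at least 50. Over the 12 *b6/b6* mice, *Pla2g7* was most like *Tbc1d10b* (*r* = 0.980), *Ppa2* (0.976), *LOC101056146* (0.975), *Sdhd* (0.969) and *Lfng* (0.965). Each of these 5 was also lower without overlap in the 6 mice with higher study numbers, so that the likeness carries the same division of the mice. For the other members the 24 mice were used with the mean of each genotype subtracted. *Pafah1b1* was most like *Rictor* (*r* = 0.843), *Csgalnact2* (0.807), *Foxk2* (0.801), *Hsd17b4* (0.801) and *Tm9sf4* (0.799), and *Pafah1b2* was most like *Ocrl* (0.899), *Mkrn1* (0.878), *Tbc1d14* (0.867), *Pfn2* (0.866) and *Extl2* (0.860). Without the 3 libraries that stood apart these values were lower, 0.728 for *Rictor* and 0.772 for *Ocrl* over 21 mice. *Pafah1b3* was most like *Lenep* (0.783), *Cartpt* (0.778), *Mdk* (0.772), *Nudt14* (0.765) and *Caly* (0.740), values that were 0.574, 0.678, 0.583, 0.745 and 0.573 without those libraries. *Pafah2* was most like *Ict1* (0.905), *Serpinb9* (0.901), *Dnajc4* (0.895), *0610009O20Rik* (0.895) and *Begain* (0.885). For *Pafah2* the likeness to *Ict1* was 0.852 without those libraries. All of these but *Begain* were higher without overlap in the 6 *b6/b6* mice with higher study numbers, as were 791 of all 13998 genes (5.65%), so this likeness also carries that division. Of the genes named for *Pafah1b1*, *Tm9sf4* was lower without overlap in those mice.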

How the data were processed

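The table deposited by the authors holds signal values, tag hits per gene divided by DESeq size factors (normalized counts), for 24 SAGE-Seq libraries, 1 per mouse. Tags had been mapped to RefSeq transcripts and the genome with an adapted version of the SOLiD SAGE Analysis Software, according to the study's methods, and the submitters' notes name DESeq, GRCm38 and mm10. The table has 19529 lines for 13998 genes, repeated lines being identical, and its lowest gene mean is 6.03. Columns of the authors' own comparison (means, fold change, log2 fold change, *P* and adjusted *P*) were not used. The value of 1 tag in each library was estimated by fitting its values, from the smallest up, to whole multiples of 1 step. Dividing by this fitted step gave the recovered tag hits, whole within 0.1 tags for 100% of values. Values were tested as log2(normalized count + 1), for genes with a mean of at least 5, with limma 3.58.1 (trend) in R 4.3.3 over all 24 mice, and *P* was adjusted by Benjamini-Hochberg over 13998 genes. edgeR 4.0.16 (quasi-likelihood, TMM) called 391 genes and DESeq2 1.42.0 called 395 on the recovered tag hits. Permutation tests were two-sided with 100000 resamples, or exact for 6 mice. Other settings were pseudocounts of 0.5 and 5, no minimum mean or 20, equal totals, study number as a covariate or limited to 270, a Benjamini-Hochberg threshold and no minimum ratio. After the data were seen, fits without 3 or 2 libraries that stood apart and with 2 principal components were added. Tested on simulated data of 13985 genes with 100 changed 2-fold and 100 changed 4-fold, limma called 83% and 98%, and 0.566% of unchanged genes.

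The text names the 5 members, called genes of the lists with the most abundant gene and the gene of lowest *P* of each list, called genes within 1 Mb of *Pla2g7* and its nearest neighbours, the 5 genes most like each member, and markers at 0 or not measured. Others were named after their values were seen. The summed level of the microglia markers is not reported here. The members and lists were chosen with earlier results of these data known.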

Additional observations from a re-analysis of the deposited data

How the results depend on the processing

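*Pla2g7* was lower in *cast/cast* mice under all 13 settings (log2 difference -7.37 to -6.01), a direction fixed by its choice, and *Pafah1b1*, *Pafah1b2*, *Pafah1b3* and *Pafah2* were called under 0 of 13, with adjusted *P* of 0.179 or more. No paired analysis was possible because the mice were numbered within each genotype in accession order. Of all genes, edgeR called 391 (331 lower), DESeq2 395 (313 lower), study numbers up to 270 848 (415 lower, 433 higher; 12 against 6 mice), the Benjamini-Hochberg threshold 80 (60 lower, 20 higher), the fit without the 2 *b6/b6* libraries that stood apart 137 (89 lower). Without all 3 libraries that stood apart 93 were called lower. Study number as a covariate gave 232 lower and no minimum ratio 120 higher. Equal totals gave 187 lower and 43 higher, 81.3% lower against 68.3%, with the median of all genes at -0.11. Without the 3 libraries the log2 difference turned to 0.025 for *Pafah1b3*, -0.041 for *Pafah2*, 0.46 for *Gh*, 0.037 for *Gja1* and 0.082 for *Reln*. Without the 2 *b6/b6* libraries it turned to 0.27 for *Gh* and 0.040 for *Gja1*. With 2 principal components it turned to -0.036 for *Pafah2*, 0.60 for *Gh*, 0.13 for *Gja1* and 0.025 for *Reln*. Called genes rose from 0 in the PAF list to 1 with edgeR, 1 with DESeq2, 1 with study number as a covariate and 2 with study numbers up to 270. In the LIS1 list they rose to 3 with study numbers up to 270 and 1 with no minimum ratio, and in the lipoprotein list to 1 with equal totals, 1 with study numbers up to 270 and 1 with no minimum ratio. Microglia markers gave 1 with study numbers up to 270, oligodendrocyte markers 1 with edgeR, 1 with study number as a covariate and 2 with study numbers up to 270, and blood markers 2 with edgeR and 2 with DESeq2. Of the 4 called neighbours, 2 were left at a minimum mean of 20, as *E130008D07Rik* and *Cyp39a1* fell below it, and 1 with the Benjamini-Hochberg threshold, while equal totals and no minimum ratio each gave 5. Study numbers up to 270 moved other values away from 0, to -0.96 for *Pafah1b1*, 0.41 for *Pafah2*, -1.04 for *Gja1*, -0.96 for *Reln* and -1.66 for *Gh*. That setting kept the 2 *b6/b6* libraries that stood apart among its 6 *b6/b6* mice. With equal totals *r* turned to -0.014 for *Pla2g7* against C/P kcal in *b6/b6* mice and 0.033 for *Pafah1b2* against C/P kcal in *cast/cast* mice. Without the 2 mice farthest from the median intake, *r* turned to -0.025 for *Pla2g7* against total kcal in *cast/cast* mice, 0.25 for *Pafah1b1* against C/P kcal in *b6/b6* mice, -0.19 for *Pafah1b1* against total kcal in *cast/cast* mice, 0.17 and 0.0096 for *Pafah1b2* against C/P kcal in *b6/b6* and *cast/cast* mice, 0.16 for *Pafah1b3* against total kcal in *b6/b6* mice and 0.024 for *Pafah2* against C/P kcal in *cast/cast* mice. The cause was not tested. The depth limits the *cast/cast* values of *Pla2g7* in particular, which rest on 1 to 12 tag hits per mouse, so that their order among mice and their correlations carry counting error.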
